A study of Mus musculus with 13 samples.

Results

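Fibro-adipogenic progenitors (FAPs) of mouse muscle were compared with mouse embryonic fibroblasts (MEFs) across all genes, 4 RNA-seq libraries against 4. These 8 of the 13 libraries of the series were taken by their labels, which name the cell type and, for FAPs, the tissue. The other 5 libraries came from FAPs of lung. They entered the filter on low counts, the scaling and the estimate of spread, and their levels are given here only beside single genes. Muscle FAP libraries carry the numbers 2 to 5 and MEF libraries 1 to 4. No label gives a genotype, strain, age, sex, treatment, sorting gate or passage for any group, and none says whether the MEFs were grown in culture or which embryonic stage they came from. Nor do the labels tie the libraries of a group to separate animals or cultures. P-values therefore measure the spread between libraries within groups, estimated over all 13. Whether this spread lies between animals, cultures or technical repeats is not stated for either group. Muscle FAP libraries differed from each other in interferon response genes and MEF libraries in sex-linked genes, as given below. The count table held 23418 genes, and the 15412 that passed a filter on low counts were tested.

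FAPs are mesenchymal cells of the space between muscle fibres. They carry the receptor PDGFRα with the surface proteins SCA-1 (Ly6a) and CD34, make much of the muscle's connective tissue matrix, send signals to muscle stem cells after injury, and can turn into fat cells or matrix-producing fibroblasts. MEFs are a mixed population of connective tissue cells taken from embryos, usually dissociated from the body and expanded on plastic, where serum drives them to spread and divide. The comparison therefore sets a resident stromal population of a tissue beside the standard laboratory fibroblast. Levels are given in CPM, the usual library-scaled read count, which is the share of a library's reads multiplied by a constant and by a scaling factor that lines up the bulk of the genes between libraries. They are not divided by gene length, so they compare the same gene between libraries and not one gene with another.

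Muscle FAP libraries held 41327292 to 44699463 counts and MEF libraries 33756915 to 41466585. Rank correlations between libraries of a group ran from 0.9875 to 0.9937 in muscle FAPs and from 0.9864 to 0.9966 in MEFs, and no pair of libraries agreed within sampling noise. In bulk RNA, fewer cells of a kind and less RNA per cell cannot be told apart.

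The markers that define FAPs matched the labels. Pdgfra stood at 1487, 1381, 1421 and 1270.0 CPM in muscle FAP 2 to 5 and 30.1, 34.7, 23 and 29.8 CPM in MEF 1 to 4. Ly6a stood at 719.6, 680.0, 689 and 1013 CPM in muscle FAP 2 to 5 and 79, 97.5, 111 and 58.8 CPM in MEF 1 to 4. Cd34 stood at 1708, 1554, 1614 and 1625 CPM in muscle FAP 2 to 5 and 23.2, 26.6, 23.9 and 24.3 CPM in MEF 1 to 4. Every muscle FAP library was above every MEF library for all 3 genes, and the fold differences were 47.3, 8.95 and 66.3 (edgeR adjusted p = 2.04e-13, 8.38e-09 and 1.10e-12). Vim, the intermediate filament protein of mesenchymal cells, was abundant in both groups and lower in muscle FAPs (2076 ± 119.9 CPM in muscle FAPs and 3918 ± 156 CPM in MEFs, edgeR adjusted p = 3.09e-05). Ptprc, the pan-leukocyte surface protein, averaged 0.0442 ± 0.0705 CPM in muscle FAPs, Pecam1 of endothelium 0.891 ± 0.396 CPM and Itga7, an integrin of muscle cells, 10.7 ± 0.92 CPM. Of 9 tested satellite cell and myoblast markers, 1 was higher in muscle FAPs and 6 were lower. Their summed level was nonetheless higher in muscle FAP 2, 3 and 4 (339.7, 247 and 279 CPM) than in any MEF library (168 to 181 CPM), and 156 CPM in muscle FAP 5. The member that rose, the adhesion molecule Vcam1 (217 ± 72.2 CPM in muscle FAPs and 55.3 ± 2.7 CPM in MEFs), made up most of it.

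Markers of other cells were not evenly spread between the groups. The 24 blood cell genes summed to 12.1 to 14.2 CPM in the muscle FAP libraries and 203 to 701 CPM in the MEF libraries, and 13 of 20 tested members were lower in muscle FAPs. Lyz2, a lysozyme of macrophages and neutrophils, stood at 0.32, 0.384, 0.432 and 0.988 CPM in muscle FAP 2 to 5 and 322, 197, 67.6 and 232 CPM in MEF 1 to 4. Laptm5, a lysosomal protein of leukocytes, stood at 0.204, 0, 0.0576 and 0.21 CPM in muscle FAP 2 to 5 and 77.1, 65.5, 33.8 and 65.9 CPM in MEF 1 to 4. All 4 MEF libraries thus carried macrophage transcripts, with the lowest level in MEF 3, while the T cell genes Cd3e and Cd3g had no count in either group. The 9 tendon cell genes summed to 2588 to 5115 CPM in muscle FAPs and 54.2 to 60.02 CPM in MEFs, whereas Scx, the transcription factor that defines tendon cells, was at 0.73 ± 0.324 CPM in muscle FAPs and 6.51 ± 1.2 CPM in MEFs. Mesothelial genes summed to 1.47 to 31.6 CPM in muscle FAPs and 132 to 175 CPM in MEFs (0% of tested members higher, 66.7% lower). Schwann cell and neuron genes summed to 63.1 to 77 and 243 to 267 CPM (26.7% and 53.3%). Epithelial genes summed to 11.2 to 50.7 and 79.9 to 105 CPM (6.25% and 31.2%). Of all tested genes, 36.1% were higher and 37.3% lower. Whether cells other than FAPs or fibroblasts contributed to any difference below was not tested.

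Most of the transcriptome differed. Of 15412 genes tested, 5570 (36.1%) were higher in muscle FAPs and 5756 (37.3%) were lower at an edgeR adjusted p under 0.05, and 4086 did not pass. Against a minimum change of 2-fold, 3147 genes were higher and 2745 lower. Changes over 16-fold were found in 860 genes in the upward direction and 782 in the downward direction, and changes over 64-fold in 351 and 336. The median log2 difference over all tested genes was -0.04 and the median size of the difference was 1.07. This balance rests on the scaling: with total counts alone as the scale, the median moved to -0.62 and the split became 3757 genes higher and 8089 lower, so a small difference in either direction is a difference relative to the bulk of the genes.

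**Figure D1:**
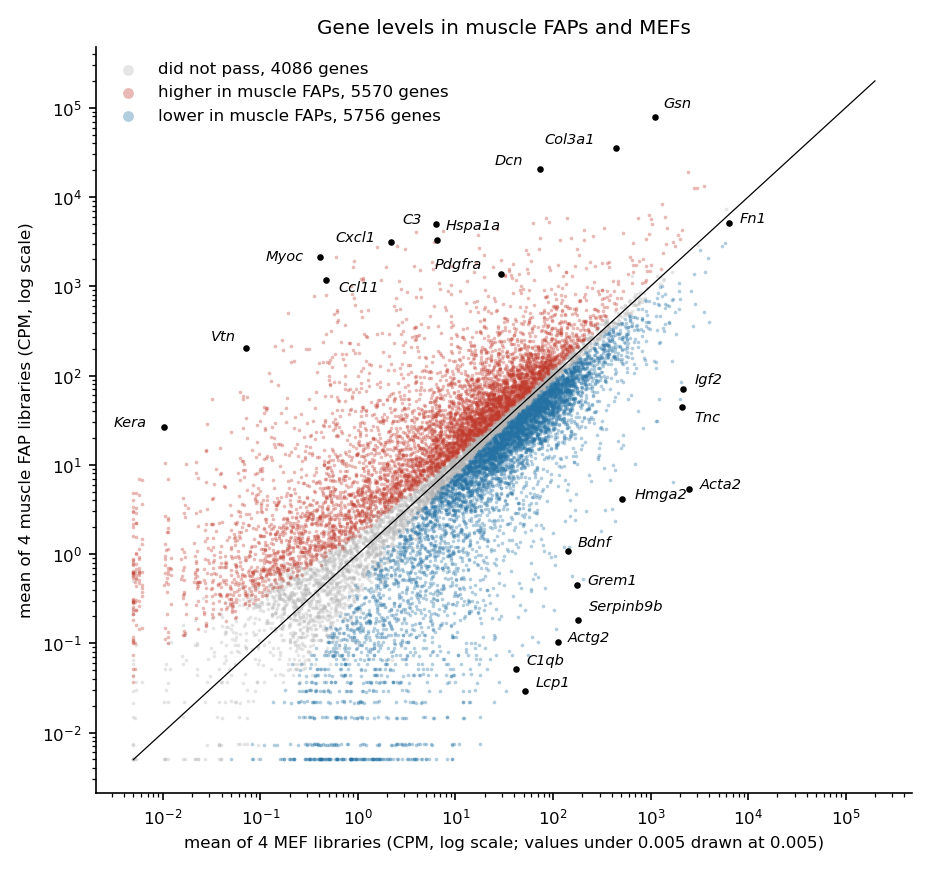
Mean level of each tested gene in the 4 MEF libraries (horizontal axis, CPM, log scale) and the 4 muscle FAP libraries (vertical axis, CPM, log scale), with the line of equality. Red points are the 5570 genes higher in muscle FAPs, blue points the 5756 lower and grey points the 4086 that did not pass. Named genes are drawn in black, with Gsn at the top and Lcp1 far below the line.

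Reads of muscle FAPs were concentrated in few genes. Gsn, which encodes the actin-severing protein gelsolin in a cytoplasmic and a secreted plasma form, took 5.39% to 6.91% of all reads in the muscle FAP libraries. In MEFs the leading gene was Fn1, the matrix protein fibronectin, with 0.635% to 0.995% of reads, and its difference did not pass the test (5131 ± 952 CPM in muscle FAPs and 6423 ± 1503 CPM in MEFs, edgeR adjusted p = 0.431, or 0.0276 with total counts as the scale). The 10 leading genes took 16.6% to 18% of reads in muscle FAPs and 5.10% to 5.58% in MEFs. In muscle FAPs these were Gsn, the collagen genes Col3a1, Col1a2, Col1a1 and Col4a1, the proteoglycan Dcn, the collagen-binding protein Sparc, the chaperones Hspa8 and Hsp90aa1, and the elongation factor Eef1a1.

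Among the 38 gene lists by role, those with the largest share of higher members were immediate-early genes (33 of 35), secreted proteins of resting stroma (28 of 30), glucocorticoid response genes and metallothioneins (16 of 18) and interferon response genes (30 of 34), each against 36.1% of all tested genes. Those with the largest share of lower members were cholesterol and fatty acid synthesis (32 of 34), the respiratory chain (46 of 49), mitosis (37 of 40) and contractile genes (25 of 28), each against 37.3% of all tested genes. None of these 8 lists changed its prevailing direction when total counts alone set the scale. Counts of list members given below stand against the same shares of all tested genes, 36.1% higher and 37.3% lower.

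**Figure D2:**
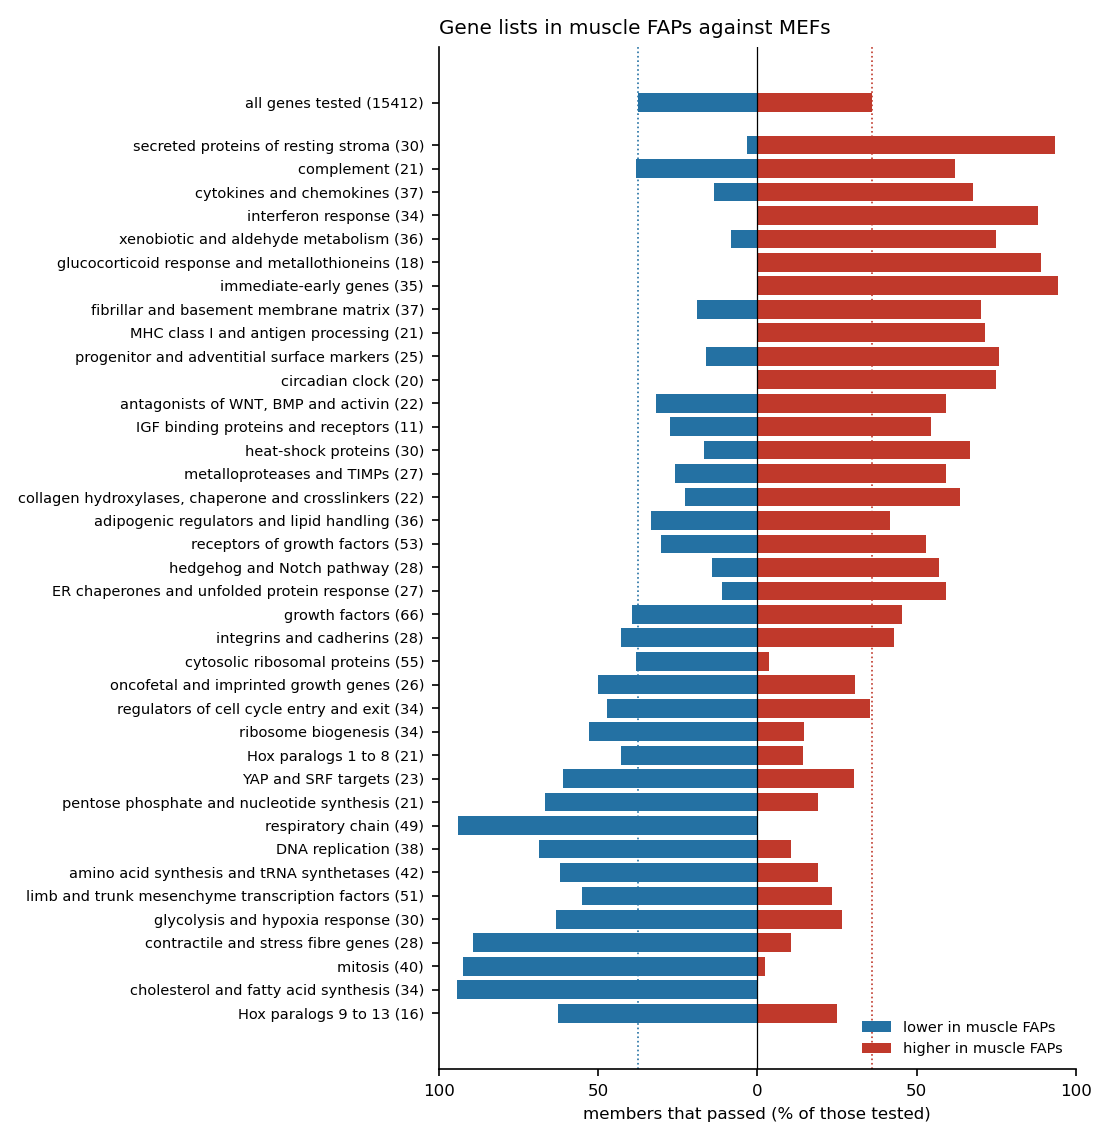
Share of the tested members of each of 38 gene lists that were higher (red, to the right) or lower (blue, to the left) in muscle FAPs than in MEFs, in % of members tested (number in brackets), ordered by the median log2 difference of the list. The top bar and the dotted lines give the same shares over all 15412 tested genes, 36.1% and 37.3%.

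Secreted proteins of resting stroma had the largest median log2 difference of the 38 lists, with 28 of 30 tested genes higher and a median of 6.64. Gsn stood at 66867, 83916, 88981 and 77478 CPM in muscle FAP 2 to 5 and 1055, 1092, 1281 and 1016 CPM in MEF 1 to 4. Its lowest muscle FAP library was thus far above its highest MEF library (log2 fold change 6.16 ± 0.12 (SE), edgeR adjusted p = 1.08e-11), and lung FAPs averaged 43115 ± 9217 CPM. Myoc, which encodes the secreted glycoprotein myocilin, stood at 1618, 2562, 2094 and 2291 CPM in muscle FAP 2 to 5 and 0.0242, 0.0849, 0.795 and 0.738 CPM in MEF 1 to 4. It had the largest log2 fold change of all genes with at least 10 CPM, 12.32 ± 0.89 (SE; edgeR adjusted p = 1.48e-08), and its level in lung FAPs was 12.6 ± 6.61 CPM. Vtn, the adhesion protein vitronectin, averaged 206 ± 26.9 CPM in muscle FAPs and 0.0714 ± 0.0439 CPM in MEFs (log2 fold change 11.42). Rarres2, which encodes the chemoattractant adipokine chemerin, averaged 212 ± 38.4 CPM in muscle FAPs and 0.143 ± 0.108 CPM in MEFs (log2 fold change 10.54).

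Surface markers of progenitor and adventitial cells were mostly higher, 19 of 25 tested, with a median log2 difference of 2.45. Pi16, a peptidase inhibitor that marks adventitial fibroblasts, stood at 1264, 991, 1113 and 1359 CPM in muscle FAP 2 to 5 and 2.42, 2.29, 1.41 and 0.738 CPM in MEF 1 to 4. Dpp4, a surface peptidase of the same cells, averaged 179.9 ± 20.4 CPM in muscle FAPs and 0.923 ± 0.246 CPM in MEFs. No library of one group reached into the other for either gene (edgeR adjusted p = 1.13e-10 for Pi16 and 3.05e-11 for Dpp4). Both were also found in lung FAPs, at 3228 ± 1047 and 229 ± 75.2 CPM. The hyaluronan receptor Cd44 fell (473 against 928 CPM, muscle FAPs given first here and in later pairs), as did the integrin chain Itgav (163 against 364 CPM) and Tnfrsf11b, which encodes the decoy receptor osteoprotegerin (5.59 against 20.9 CPM).

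Genes outside the lists of secreted proteins and surface markers were also among the largest increases. Ace, the angiotensin-converting enzyme, stood at 3509, 2271, 3053 and 2251 CPM in muscle FAP 2 to 5 and 1.6, 1.61, 1.66 and 1.43 CPM in MEF 1 to 4. Steap4, a metalloreductase, averaged 798 ± 185 CPM in muscle FAPs and 0.473 ± 0.0784 CPM in MEFs. Abca8a, a lipid transporter of the ABC family, averaged 1918 ± 192 CPM in muscle FAPs and 0.921 ± 0.209 CPM in MEFs. Itih5, which encodes a hyaluronan-binding protein of the matrix, averaged 1652 ± 142 CPM in muscle FAPs and 0.887 ± 0.32 CPM in MEFs. Each of these genes averaged under 2 CPM in MEFs, and in lung FAPs they averaged between 212 CPM for Steap4 and 1050.0 CPM for Abca8a. Kera, among the 9 tendon cell genes summed above, encodes keratocan, a proteoglycan of cornea and tendon. It averaged 26.8 ± 7.17 CPM in muscle FAPs and had 2 counts over all MEF libraries. The ratio was 2434, with an exact 95% interval of 673 to 20103 for counting error only.

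**Figure D3:**
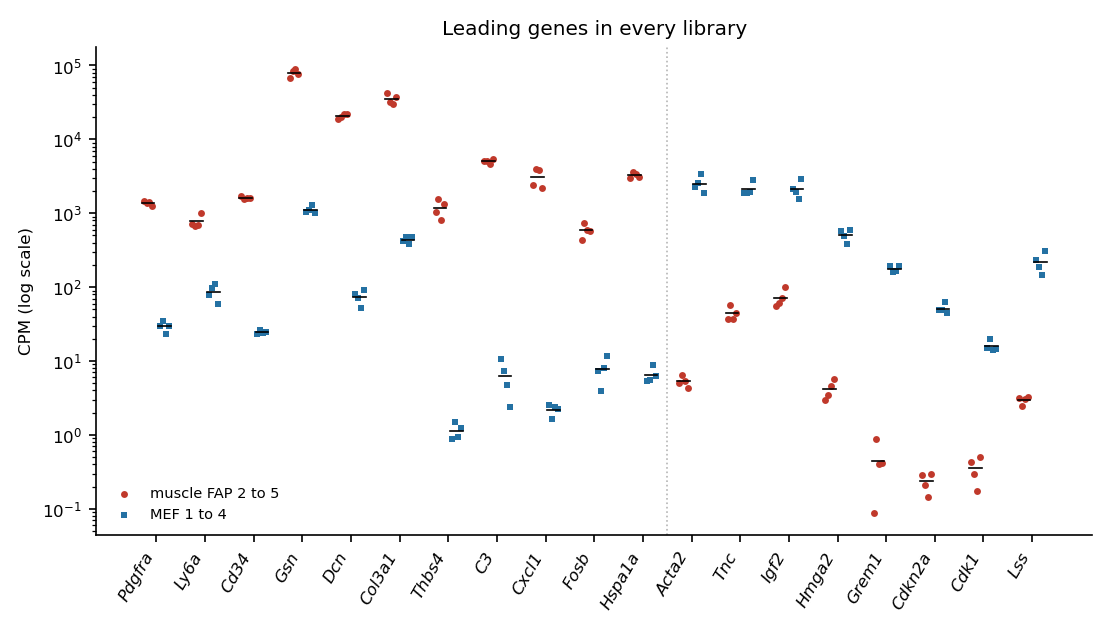
Levels of 19 genes (CPM, log scale) in each muscle FAP library (red circles) and each MEF library (blue squares), with black bars at the group means. The 11 genes left of the dotted line were higher in every muscle FAP library and the 8 to its right were higher in every MEF library.

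Matrix genes were mostly higher in muscle FAPs, 26 of 37 tested members with a median log2 difference of 2.50. Among the fibrillar collagens, Col3a1, the type III chain of distensible tissue, stood at 42917, 31777, 29755 and 37904 CPM in muscle FAP 2 to 5 and 423, 471, 383 and 478 CPM in MEF 1 to 4. Col1a2, a chain of type I collagen, stood at 18860.0, 19940.0, 15870.0 and 21681 CPM in muscle FAP 2 to 5 and 2274, 2379.8, 2233 and 2758 CPM in MEF 1 to 4. The type III chain differed 81.2-fold (edgeR adjusted p = 8.29e-12) and the type I chain 7.92-fold (edgeR adjusted p = 8.79e-08), and Col1a1 differed 4.25-fold (edgeR adjusted p = 2.03e-04). Dcn, which encodes decorin, the small proteoglycan that regulates collagen fibril thickness, averaged 20792 ± 1699.8 CPM in muscle FAPs and 73.9 ± 16.9 CPM in MEFs, a 281-fold difference. Tnxb, a tenascin of loose connective tissue, averaged 4063 ± 419 CPM in muscle FAPs and 3.93 ± 0.799 CPM in MEFs, and Col15a1, a collagen of basement membrane zones, 2838 ± 499 CPM in muscle FAPs and 2.52 ± 0.142 CPM in MEFs.

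Tenascins went in opposite directions. Tnc, a tenascin of embryonic and injured tissue, stood at 37.5, 57.5, 36.5 and 45.3 CPM in muscle FAP 2 to 5 and 1866, 1858, 1933 and 2794 CPM in MEF 1 to 4. It was 47.8-fold lower in muscle FAPs than in MEFs (log2 fold change -5.58 ± 0.21 (SE), edgeR adjusted p = 6.00e-08), and the groups did not overlap. Thbs1, the matricellular protein thrombospondin-1, fell from 5874 ± 628 CPM in MEFs to 3062 ± 581 CPM in muscle FAPs, while Thbs4, the thrombospondin of tendon and muscle attachment, rose from 1.13 ± 0.284 to 1188 ± 335 CPM. Spp1, which encodes osteopontin and is made by macrophages and bone cells as well as fibroblasts, stood at 2.53, 1.21, 3.66 and 1.92 CPM in muscle FAP 2 to 5 and 577, 308, 106 and 752 CPM in MEF 1 to 4. The MEF libraries differed from each other over a wide range in Spp1. MEF 3 was lowest both in Spp1 and in the blood cell sum (203 CPM). MEF 4 was highest in Spp1, whereas MEF 1 had the highest blood cell sum (701 against 550.5 CPM in MEF 4). The part of macrophages in the Spp1 levels was not tested.

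Matrix processing was less one-sided. Of collagen hydroxylases, chaperones and crosslinkers, 14 rose and 5 fell out of 22 (with total counts as the scale, 11 higher and 6 lower). Adamts2, which cleaves the amino-terminal propeptide of procollagen, rose 46.2-fold (919 against 19.9 CPM), and Pcolce, an enhancer of carboxy-terminal cleavage, 5.12-fold (1831 against 358 CPM). Lox, the oxidase that crosslinks collagen and elastin, fell 2.43-fold (577 against 1405 CPM), as did Fkbp10, a collagen chaperone of the endoplasmic reticulum (1.96-fold). Of metalloproteases and their inhibitors, 16 rose and 7 fell out of 27 (59.3% and 25.9%, against 36.1% and 37.3% of all tested genes). The aggrecan-cleaving protease Adamts4 rose from 3.75 ± 0.677 to 345 ± 68 CPM. Mmp10, a stromelysin, averaged 0.379 against 9.88 CPM, and Mmp12, the elastase of macrophages, 0.366 against 6.75 CPM.

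Growth factors were found on both sides, with 30 higher and 26 lower of 66, or 45.5% and 39.4% against 36.1% and 37.3% of all tested genes. The median of the list was 0.25 and turned to -0.32 with total counts as the scale. The individual ligands were sharply split. Igf2, the fetal insulin-like growth factor, stood at 54.8, 61.1, 71.1 and 99.4 CPM in muscle FAP 2 to 5 and 2136, 1944, 1543 and 2905 CPM in MEF 1 to 4. Bdnf, a neurotrophin, stood at 1.25, 1.27, 1.53 and 0.299 CPM in muscle FAP 2 to 5 and 148, 128, 126 and 164 CPM in MEF 1 to 4. Both were higher in every MEF library, by 29.8-fold and 129-fold (edgeR adjusted p = 6.95e-11 and 1.75e-08). Ntrk2, the receptor for Bdnf, went the other way, at 393 ± 57.9 CPM in muscle FAPs and 2.83 ± 0.366 CPM in MEFs. Nrg1, the ligand of ERBB receptors, averaged 0.567 against 20.1 CPM, and Apln, which encodes the vascular peptide apelin, 0.657 against 21.6 CPM. Ligands that rose included Angptl1, a secreted angiopoietin-like protein (621 against 0.942 CPM), and the BMP-family members Bmp5 (177 against 1.02 CPM) and Gdf10 (354 against 3.83 CPM).

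Secreted inhibitors of these ligands also exchanged members. Of 22 antagonists of WNT, BMP and activin, 13 rose and 7 fell (59.1% and 31.8%, against 36.1% and 37.3% of all tested genes). Grem1, the BMP antagonist gremlin, stood at 0.0874, 0.887, 0.403 and 0.419 CPM in muscle FAP 2 to 5 and 190.5, 162, 164 and 195 CPM in MEF 1 to 4. The groups did not overlap, and the difference was 394-fold (edgeR adjusted p = 9.83e-12). Nog, which encodes the BMP antagonist noggin, fell too (2.2 against 12.7 CPM), whereas the BMP antagonists Chrd (121 against 2.7 CPM) and Chrdl1 (57 against 0.609 CPM) and the WNT-binding Sfrp4 (152 against 0.701 CPM) rose. Fstl1, a follistatin-like glycoprotein, was abundant in both groups and rose 4.66-fold. Among IGF binding proteins, Igfbp2 fell (0.573 against 157 CPM) and Igfbp6 (1346 against 32.5 CPM) and Igfbp5 (1312 against 128 CPM) rose.

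Of the receptors more were higher in muscle FAPs, 28 higher and 16 lower of 53 (with total counts as the scale, 24 higher and 21 lower). The shares of 52.8% and 30.2% stood against 36.1% and 37.3% of all tested genes. The interleukin-1 receptor Il1r1 rose 66.5-fold (536 against 8.06 CPM), the angiotensin receptor Agtr1a 69.3-fold (52.2 against 0.744 CPM) and Fgfr1 3.76-fold (810.0 against 215 CPM). The VEGF receptors fell: Flt4 averaged 0.146 against 108 CPM, Kdr 4.68 against 172 CPM and Flt1 4.01 against 49.4 CPM. Of 18 endothelial markers tested, 3 rose (16.7%) and 6 fell (33.3%), against 36.1% and 37.3% of all tested genes. Their summed level was higher in every muscle FAP library (463 to 625 CPM) than in any MEF library (325 to 394 CPM). Most of that sum in muscle FAPs came from Ly6c1 (292 against 10.1 CPM) and the TGF-β co-receptor Eng (206 against 75.6 CPM), and Cdh5, the endothelial cadherin, averaged 0.936 against 1.45 CPM. The part of endothelial cells in these values was not tested. The hedgehog target Gli1 rose (21.2 ± 3.56 CPM in muscle FAPs and 0.32 ± 0.133 CPM in MEFs), and lung FAPs averaged 130.2 ± 19.7 CPM (edgeR adjusted p for muscle against lung = 3.30e-08). Boc, a hedgehog co-receptor, rose 11-fold (309 against 28.2 CPM).

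Cytokine and chemokine genes were mostly higher in muscle FAPs, 25 of 37 with a median log2 difference of 3.70. Among the 27 members with at least 5 CPM in 4 libraries, 24 were higher and the median was 4.74. Cxcl1, a chemoattractant of neutrophils, stood at 2401, 4021, 3837 and 2226 CPM in muscle FAP 2 to 5 and 2.52, 1.63, 2.39 and 2.23 CPM in MEF 1 to 4. Ccl11, which encodes eotaxin, stood at 1166, 1022, 1432 and 1095 CPM in muscle FAP 2 to 5 and 0.582, 0.403, 0.454 and 0.451 CPM in MEF 1 to 4. The lowest muscle FAP library was far above the highest MEF library for both genes (log2 fold changes 10.47 and 11.28, edgeR adjusted p = 4.19e-11 and 4.12e-14). Lung FAPs also carried them, at 1017 ± 506 and 459 ± 95.6 CPM. Cxcl2, a relative of Cxcl1, averaged 216 ± 91.7 CPM in muscle FAPs and 0.206 ± 0.177 CPM in MEFs. Il11, a cytokine of fibrosis, fell (2.87 against 11.6 CPM). Ccl3 and Ccl4, chemokines of macrophages that were picked out after their values were seen, were also lower in muscle FAPs (0 against 4.95 CPM and 0.00739 against 3.58 CPM), beside the blood cell sums of 203 to 701 CPM in MEFs.

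Complement genes split into a group that rose and a smaller one that fell. Components C3 and C7 and the inhibitor Serping1 were among 13 of 21 tested members that rose (61.9%, against 36.1% of all tested genes). C3, the central component, stood at 5019, 5037, 4693 and 5346 CPM in muscle FAP 2 to 5 and 10.5, 7.28, 4.79 and 2.38 CPM in MEF 1 to 4. C7, part of the membrane attack complex, averaged 743 ± 178 CPM in muscle FAPs and 0.913 ± 0.591 CPM in MEFs, and Serping1, the C1 inhibitor, 4161 ± 272 CPM in muscle FAPs and 7.42 ± 1.47 CPM in MEFs. The other 8 tested members fell (38.1%, near the 37.3% of all tested genes). They included C1qa (0.0447 against 17.8 CPM) and C1qb (0.0515 against 41.3 CPM), chains of the recognition protein C1q that macrophages make, and the receptor C3ar1 (0.081 against 35.3 CPM). Among all genes with at least 10 CPM, the largest decreases also held Tyrobp (0.0221 against 25.1 CPM), the adaptor of myeloid receptors, Emr1 (0.0148 against 18 CPM), the macrophage antigen F4/80, Lcp1 (0.0294 against 51.6 CPM), the actin-bundling plastin of leukocytes, and Lilrb4, an inhibitory receptor of myeloid cells with 17.9 ± 9.15 CPM in MEFs and 1 count over all muscle FAP libraries, a ratio of 2425 with an exact 95% interval of 435 to 95810.0. In MEF 1 to 4 C1qb stood at 58.4, 37.5, 17.1 and 52.2 CPM, next to blood cell sums of 701, 492, 203 and 550.5 CPM. The part of such cells in these decreases was not tested.

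Interferon response genes were higher in muscle FAPs, 30 of 34 with none lower and a median log2 difference of 3.57. Irf1, a transcription factor induced by interferons, stood at 824, 1053, 899.8 and 800.4 CPM in muscle FAP 2 to 5 and 11.6, 11, 10.8 and 11.1 CPM in MEF 1 to 4. Ifi204, an interferon-inducible DNA sensor, stood at 339, 357, 415 and 375 CPM in muscle FAP 2 to 5 and 3.34, 3.31, 1.27 and 2.42 CPM in MEF 1 to 4. Iigp1, an interferon-inducible GTPase, stood at 45.5, 31.6, 50.4 and 433 CPM in muscle FAP 2 to 5 and 0.412, 0.403, 0.204 and 0.717 CPM in MEF 1 to 4. All 3 were above every MEF library in every muscle FAP library, and Iigp1 in muscle FAP 5 was far above the other muscle FAP libraries. Genes of MHC class I and antigen processing followed the same order, 15 of 21 higher and none lower, with H2-K1 at 637 ± 269 CPM in muscle FAPs and 31 ± 8.17 CPM in MEFs and H2-Q4 at 283 ± 52.3 CPM in muscle FAPs and 4.19 ± 0.919 CPM in MEFs. Reads of class I genes can be shared between near-identical copies, so single members are uncertain.

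Muscle FAP 5 stood apart in these lists. The interferon list summed to 3967 CPM in muscle FAP 5 and to 2261, 2422 and 2452 CPM in muscle FAP 2 to 4. The class I list summed to 4926 CPM in muscle FAP 5 and 2426 to 2599 CPM in the other 3. MEF libraries summed to 281 to 346 and 592 to 609 CPM, below all 4 muscle FAP libraries. Without muscle FAP 5, 29 interferon genes and 14 class I genes were still higher, and the median log2 difference of the interferon response list was 2.90 in place of 3.57.

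**Figure D4:**
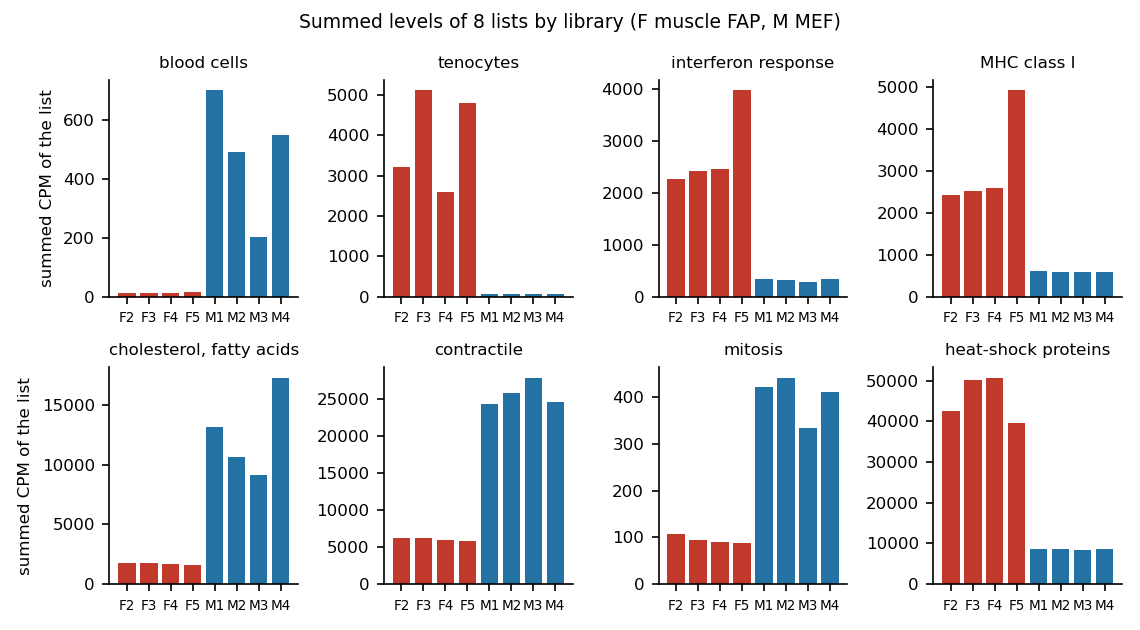
Summed CPM of 8 gene lists (vertical axes start at 0) in muscle FAP 2 to 5 (F2 to F5, red) and MEF 1 to 4 (M1 to M4, blue). Blood cell genes were found in the MEF libraries and least in M3, interferon and MHC class I genes were highest in F5, and cholesterol genes ranged from 9124 to 17282 CPM among MEFs.

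Genes of the immediate response to stimuli were nearly all higher in muscle FAPs, 33 of 35 with none lower and a median log2 difference of 2.96. These genes are switched on within minutes of a stimulus, cell dissociation included. Egr1, a zinc-finger transcription factor, stood at 5846, 6349, 6206 and 4782 CPM in muscle FAP 2 to 5 and 118, 27.1, 79.7 and 116 CPM in MEF 1 to 4. Fosb, a subunit of the AP-1 factor, stood at 434, 740.4, 592 and 574 CPM in muscle FAP 2 to 5 and 7.37, 3.95, 8.13 and 11.5 CPM in MEF 1 to 4. The groups did not overlap, with differences of 68.1-fold for Egr1 and 75.5-fold for Fosb (edgeR adjusted p = 2.21e-07 and 5.19e-09). Socs3, a feedback inhibitor of cytokine signalling, averaged 895 ± 47.9 CPM in muscle FAPs and 8.37 ± 1.12 CPM in MEFs. In lung FAPs Egr1 averaged 1859 ± 909.7 CPM, Fosb 2151 ± 819.5 CPM and Socs3 1005 ± 324 CPM.

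Of heat-shock genes, 20 of 30 rose and 5 fell (17 higher and 10 lower with total counts as the scale). Hspa1a, which encodes inducible HSP70, stood at 2986, 3601, 3387 and 3101 CPM in muscle FAP 2 to 5 and 5.31, 5.58, 8.95 and 6.27 CPM in MEF 1 to 4. Its near-identical copy Hspa1b averaged 4417 ± 496 CPM in muscle FAPs and 27 ± 7.73 CPM in MEFs, and reads may be shared between the copies. Dnajb1, an HSP40 co-chaperone, averaged 2644 ± 204 CPM in muscle FAPs and 71.9 ± 5.53 CPM in MEFs, and Hspa8, the constitutive HSP70, 12594 ± 1991 CPM in muscle FAPs and 2814 ± 115 CPM in MEFs. Lung FAPs stood at 101 ± 30.2 CPM for Hspa1a and 162 ± 39.3 CPM for Dnajb1, below muscle FAPs for both (edgeR adjusted p for muscle against lung = 9.05e-10 and 5.12e-10). Hspa4, an HSP110-family protein, fell (174 against 371 CPM). Chaperones of the endoplasmic reticulum leaned the same way at a smaller size, 16 higher and 3 lower of 27 and a median log2 difference of 0.61, a split that became 10 higher and 13 lower with total counts as the scale. Hspa5, the chaperone BiP, rose 7.89-fold (5853 against 742 CPM). Hmox1, the haem oxygenase induced by oxidative stress, averaged 4527 ± 1104 CPM in muscle FAPs and 336 ± 120.0 CPM in MEFs and 149 ± 83.5 CPM in lung FAPs. How tissue dissociation or culture contributed to these levels was not tested.

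Glucocorticoid response genes and metallothioneins rose in 16 of 18 cases with none lower. Zbtb16, a zinc-finger factor induced by glucocorticoids, stood at 282, 251, 247 and 217 CPM in muscle FAP 2 to 5 and 0.218, 0.127, 0.182 and 0.143 CPM in MEF 1 to 4. Fkbp5, a co-chaperone of the glucocorticoid receptor, averaged 362 ± 61.4 CPM in muscle FAPs and 6.69 ± 1.69 CPM in MEFs, and Hsd11b1, the enzyme that regenerates active glucocorticoid, 318 ± 99.1 CPM in muscle FAPs and 0.534 ± 0.174 CPM in MEFs. The metallothionein Mt2 averaged 2602 ± 512 CPM in muscle FAPs and 177 ± 13.4 CPM in MEFs. Clock genes rose in 15 of 20 cases with none lower (75% higher, against 36.1% of all tested genes). The part of the time of collection in the levels of clock genes was not tested. Per2, a repressor of the clock, averaged 37 ± 8.23 CPM in muscle FAPs and 1.48 ± 0.128 CPM in MEFs, Nr1d1, which encodes the nuclear receptor REV-ERBα, 427 ± 98.1 CPM in muscle FAPs and 41.2 ± 6.24 CPM in MEFs, and the output factor Hlf 34.9 ± 13.6 CPM in muscle FAPs and 0.652 ± 0.127 CPM in MEFs.

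Contractile and stress fibre genes were mostly lower in muscle FAPs. Of 28 tested, 25 were lower in muscle FAPs and 3 higher, with a median log2 difference of -2.08. Acta2, the smooth muscle actin of myofibroblasts, stood at 5.1, 6.48, 5.41 and 4.31 CPM in muscle FAP 2 to 5 and 2235, 2553, 3354 and 1856 CPM in MEF 1 to 4. Its level in muscle FAPs was 469-fold lower (log2 fold change -8.87 ± 0.22 (SE), edgeR adjusted p = 9.43e-09). Actg2, the enteric smooth muscle actin, averaged 0.103 against 112 CPM, and Cnn1, the thin-filament protein calponin, 0.264 against 78.3 CPM. Flna, the actin crosslinker filamin A, averaged 628 ± 86.8 CPM in muscle FAPs and 2886 ± 329 CPM in MEFs, and the cytoplasmic actin Actg1 1458 ± 59.99 CPM in muscle FAPs and 3628 ± 301 CPM in MEFs. The members that rose were the fibroblast surface protease Fap (274 against 3.99 CPM), the collagen-binding integrin chain Itga11 (298 against 7.12 CPM) and Mylk, the myosin light chain kinase (25.6 against 9.06 CPM). Markers of other contractile cells were also lower in sum. Genes of pericytes and smooth muscle summed to 208 to 225 CPM in muscle FAPs and 354 to 469 CPM in MEFs. Of 11 tested, 3 rose (27.3%) and 2 fell (18.2%), against 36.1% and 37.3% of all tested genes. Genes of muscle fibres summed to 28.5 to 37.3 and 103 to 208 CPM, with 5 of 18 higher (27.8%) and 3 lower (16.7%). Eno3, the muscle enolase, made up most of the latter sum in MEFs (7.6 against 115 CPM). The part of such cells in these differences was not tested.

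Targets of YAP and SRF, factors that respond to spreading and actin tension, fell in 14 of 23 cases and rose in 7. These shares, 60.9% and 30.4%, stood against 37.3% and 36.1% of all tested genes. The summed level of the list was nonetheless higher in every muscle FAP library (6072 to 6764 CPM) than in any MEF library (5526 to 6002 CPM). Ankrd1, a nuclear ankyrin-repeat protein, averaged 0.406 ± 0.258 CPM in muscle FAPs and 59.5 ± 7.14 CPM in MEFs, and Ajuba, a LIM protein of adhesions, 3.12 ± 0.505 CPM in muscle FAPs and 167 ± 19.5 CPM in MEFs. The growth factor Tgfb2 (127 against 24.8 CPM) and the ectonucleotidase Nt5e (17.9 against 2.55 CPM) rose. Integrins and cadherins were evenly divided, 12 higher and 12 lower of 28 (42.9% each, against 36.1% and 37.3% of all tested genes). The laminin-binding chain Itga3 averaged 0.558 against 70.5 CPM and the shared β1 chain Itgb1 884 against 1969 CPM, both lower in muscle FAPs, and the chain Itga9 rose (132 against 10.3 CPM). Cdh10 and Cdh6, classical cadherins, were also far lower in muscle FAPs (0.0369 against 28.1 CPM and 0.0362 against 16.8 CPM).

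Cell division genes were lower in muscle FAPs. Of 40 mitosis genes tested, 37 fell and 1 rose, with a median log2 difference of -2.73. Cdk1, the kinase that drives entry into mitosis, stood at 0.437, 0.296, 0.173 and 0.509 CPM in muscle FAP 2 to 5 and 15, 19.7, 14.2 and 14.7 CPM in MEF 1 to 4. Mki67, which encodes the proliferation antigen Ki-67, averaged 1.86 ± 0.784 CPM in muscle FAPs and 16.5 ± 5.47 CPM in MEFs. Both separated the groups without overlap (edgeR adjusted p = 4.59e-08 and 6.26e-07). Plk4, the kinase of centriole duplication, was the member that rose (6.57 against 3.48 CPM), and with total counts as the scale it did not pass. DNA replication genes fell in 26 of 38 cases. Rrm2, a subunit of ribonucleotide reductase, averaged 6.73 ± 0.535 CPM in muscle FAPs and 95.1 ± 30.6 CPM in MEFs, and Mcm2, of the replicative helicase, 3.74 ± 0.304 CPM in muscle FAPs and 43.4 ± 4.87 CPM in MEFs. Pcna, the sliding clamp of replication and repair, rose (142 against 68.6 CPM), as did Pola1, of the primase complex (14.3 against 6.33 CPM).

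Promoter sequence was set beside these lists because mitosis genes are known to be controlled through a CCAAT box and the cell cycle homology region (CHR), and replication genes through E2F sites. Promoter windows of RefSeq (GRCm38.p6, 250 bases before to 50 after each start, both strands searched) were matched by symbol to 12076 of the 15412 tested genes. TTTGAA, the letters of the CHR, was found in the windows of 24 of 34 mitosis genes (70.6%), against 14.6% of tested genes and 20.2% of all promoters of the table. CCAAT was found in 76.5% of mitosis genes and 42.3% of tested genes. GCGGGAA, the E2F letters, was found in 15 of 32 replication genes (46.9%) against 9.18% of tested genes. Over all genes that passed the test, the shares were close in both directions, with the CHR letters in 14.5% of genes higher and 14.9% of genes lower. A match is a description of letters and not evidence of binding.

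The promoters shown are those of the 4 mitosis genes and 2 replication genes that fell the most among eligible members. Eligible members had 1 promoter window and all the named letters in the 150 bases before the start. Members on 1 chromosome were left out by rule. Letters of the CHR and CCAAT (mitosis genes) or of the E2F site and CCAAT (replication genes) are in capitals in either orientation; a match on the other strand reads as the reverse complement. Each sequence runs 5′ to 3′ toward the start of the gene. The positions are chr10:69352913-69353062, minus strand for Cdk1, chr11:99024190-99024339, minus strand for Top2a, chr4:118437344-118437493, minus strand for Cdc20 and chr7:135716380-135716529, minus strand for Mki67, then chr17:56040266-56040415, plus strand for Chaf1a and chr7:102441545-102441694, plus strand for Rrm1.
Cdk1: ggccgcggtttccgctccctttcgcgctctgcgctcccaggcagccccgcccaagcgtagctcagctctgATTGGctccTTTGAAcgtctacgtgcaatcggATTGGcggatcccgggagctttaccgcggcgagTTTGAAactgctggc
Top2a: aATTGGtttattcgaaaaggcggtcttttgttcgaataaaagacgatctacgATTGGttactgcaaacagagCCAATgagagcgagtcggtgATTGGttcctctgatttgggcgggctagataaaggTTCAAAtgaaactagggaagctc
Cdc20: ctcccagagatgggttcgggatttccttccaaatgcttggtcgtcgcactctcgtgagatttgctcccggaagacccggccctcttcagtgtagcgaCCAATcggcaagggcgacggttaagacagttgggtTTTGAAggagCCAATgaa
Mki67: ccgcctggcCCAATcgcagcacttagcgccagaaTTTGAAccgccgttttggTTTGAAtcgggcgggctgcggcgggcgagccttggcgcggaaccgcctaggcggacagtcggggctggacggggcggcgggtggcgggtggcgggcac
Chaf1a: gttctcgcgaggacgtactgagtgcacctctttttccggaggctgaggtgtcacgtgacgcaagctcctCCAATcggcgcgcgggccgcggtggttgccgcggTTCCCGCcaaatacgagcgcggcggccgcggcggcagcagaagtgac
Rrm1: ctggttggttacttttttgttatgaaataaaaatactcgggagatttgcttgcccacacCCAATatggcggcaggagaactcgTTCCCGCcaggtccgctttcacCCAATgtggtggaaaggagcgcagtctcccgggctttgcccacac
The log2 fold changes of these genes were -5.48 for Cdk1, -4.41 for Top2a, which encodes the topoisomerase that untangles chromosomes, -3.39 for Cdc20, an activator of the anaphase-promoting complex, and -3.15 for Mki67. They were -2.24 for Chaf1a, a subunit of the chromatin assembly factor, and -1.28 for Rrm1, the large subunit of ribonucleotide reductase.

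**Figure D5:**
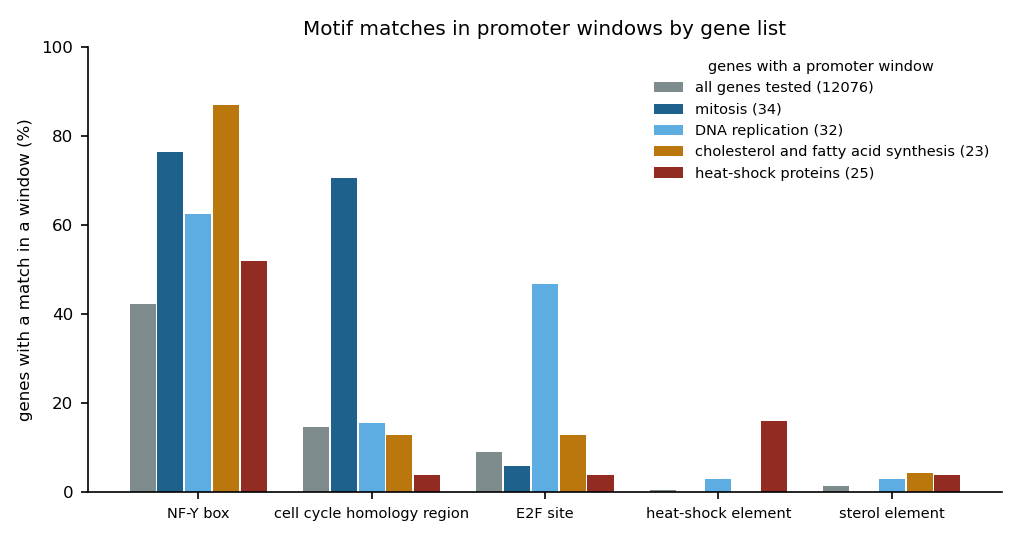
Share of genes with a match to each of 5 motifs (vertical axis, %, starting at 0) in their RefSeq promoter windows, for all tested genes (grey) and 4 gene lists (number of genes with a window in brackets). The NF-Y box is the CCAAT box of the text, and mitosis genes stood at 70.6% for the cell cycle homology region against 14.6% of all tested genes.

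Regulators of cell cycle entry and exit were mixed, 12 higher and 16 lower of 34 (35.3% and 47.1%, against 36.1% and 37.3% of all tested genes). Cdkn2a, Cdkn2b and Cdkn1a, inhibitors of the cycle that are known to accumulate when fibroblasts are cultured, were lower in muscle FAPs. Cdkn2a, which encodes p16INK4a and p19ARF, stood at 0.291, 0.207, 0.144 and 0.299 CPM in muscle FAP 2 to 5 and 48.5, 48.9, 62.6 and 45.2 CPM in MEF 1 to 4. Cdkn2b, its neighbour encoding p15INK4b, averaged 0.929 ± 0.255 CPM in muscle FAPs and 94.9 ± 6.03 CPM in MEFs, and Cdkn1a, the p53 target p21, 321 ± 12.9 CPM in muscle FAPs and 1177 ± 185 CPM in MEFs. MEFs thus had higher levels of both the mitosis genes and these inhibitors (edgeR adjusted p = 1.49e-11, 2.66e-10 and 5.15e-07). The part of culture in these levels was not tested. Gas1, a growth arrest protein of the surface (171 against 15.3 CPM), and the anti-proliferative factor Btg2 (789.9 against 120.2 CPM) rose, and so did the transcription factor Myc (448 against 81.3 CPM).

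Sterol and fatty acid synthesis fell almost throughout, 32 of 34 with none higher and a median log2 difference of -3.24. Lss, the lanosterol synthase, stood at 3.2, 2.48, 3.08 and 3.26 CPM in muscle FAP 2 to 5 and 229, 186, 147 and 309 CPM in MEF 1 to 4. Fdft1, the squalene synthase, averaged 6.76 ± 1.79 CPM in muscle FAPs and 387 ± 38.3 CPM in MEFs. The differences were 72.3-fold and 57.2-fold (edgeR adjusted p = 1.50e-11 and 2.08e-11), and lung FAPs were also low, at 5.16 ± 0.997 and 12.2 ± 3.47 CPM. Within MEFs the summed level of the list ran from 9124 CPM in MEF 3 to 17282 CPM in MEF 4, all above the 1596 to 1771 CPM of muscle FAPs.

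Among promoters of this list CCAAT was found in 20 of 23 genes (87%), against 42.3% of tested genes. The sterol element searched, TCACNCCAC, was found in 1 of 23 genes, against 1.43% of tested genes. Members on the chromosome left out above were again not eligible to be shown. The 2 sequences shown belong to the members that fell the most among those with 1 window and CCAAT within 150 bases of the start, with CCAAT or its reverse complement in capitals, Lss at chr10:76531455-76531604, plus strand and Cyp51, the lanosterol demethylase, at chr5:4104698-4104847, minus strand.
Lss: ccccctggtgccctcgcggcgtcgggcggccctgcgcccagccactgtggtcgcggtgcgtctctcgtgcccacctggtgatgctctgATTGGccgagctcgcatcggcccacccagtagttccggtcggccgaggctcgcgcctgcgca
Cyp51: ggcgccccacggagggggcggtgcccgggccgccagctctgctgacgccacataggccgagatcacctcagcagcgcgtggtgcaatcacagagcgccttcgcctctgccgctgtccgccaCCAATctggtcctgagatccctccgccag
Cyp51 averaged 26.2 ± 1.77 CPM in muscle FAPs and 841 ± 325 CPM in MEFs, a log2 fold change of -5.01.

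Respiratory chain genes fell in 46 of 49 cases with none higher, by a modest median of -0.91. Cox5a, a subunit of cytochrome c oxidase, averaged 23.1 ± 2.61 CPM in muscle FAPs and 120.4 ± 9.87 CPM in MEFs, and Atp5b, the β subunit of ATP synthase, 608 ± 32.1 CPM in muscle FAPs and 1542 ± 197 CPM in MEFs. Of glycolysis and hypoxia genes, 19 fell and 8 rose out of 30. Pkm, the pyruvate kinase gene, stood at 375, 426, 410.0 and 394 CPM in muscle FAP 2 to 5 and 3719.5, 4154, 4375 and 3691 CPM in MEF 1 to 4. It was 9.93-fold lower in muscle FAPs without overlap (edgeR adjusted p = 6.53e-12), while Hk2, a hexokinase, rose 6.69-fold (546 against 81.6 CPM). Amino acid synthesis and tRNA synthetase genes fell in 26 of 42 cases and rose in 8 (61.9% and 19%, against 37.3% and 36.1% of all tested genes). Phgdh, which starts serine synthesis, averaged 26.9 against 309.8 CPM, and Chac1, a glutathione-degrading enzyme of the ATF4 response, 1.86 against 39.5 CPM. Glul, the glutamine synthetase, went the other way (1579 against 35.7 CPM, 44.2-fold).

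Of 55 cytosolic ribosomal protein genes, 21 were lower, 2 were higher and 32 did not pass, with a small median log2 difference of -0.22. The share of lower members, 38.2%, was near the 37.3% of all tested genes, and that of higher members was 3.64% against 36.1%. With total counts as the scale 51 were lower and none higher. Their summed level was 25395 to 35518 CPM in the muscle FAP libraries and 36241 to 41582 CPM in the MEF libraries, without overlap. Rps2 averaged 892 against 2576 CPM and Rplp0 1377 against 2760.0 CPM, both lower. Reads of ribosomal protein genes can also match processed pseudogenes. Ribosome biogenesis genes fell in 18 of 34 cases and rose in 5 (2 higher and 29 lower with total counts as the scale), with Polr1a, the large subunit of RNA polymerase I, at 30.1 against 96.7 CPM and Nop58, a core protein of small nucleolar particles, at 342 against 104 CPM.

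Enzymes of xenobiotic and aldehyde metabolism were a group that rose, 27 of 36 with 3 lower. Fmo1, a flavin-containing monooxygenase, stood at 125, 157, 146 and 133 CPM in muscle FAP 2 to 5 and 0.291, 0.127, 0.295 and 0.102 CPM in MEF 1 to 4. Ces1d, a carboxylesterase, averaged 106 ± 33.4 CPM in muscle FAPs and 0.124 ± 0.094 CPM in MEFs, and Inmt, a methyltransferase for small amines, 526 ± 131 CPM in muscle FAPs and 1.08 ± 0.797 CPM in MEFs. Lung FAPs had more Inmt than muscle FAPs (2236 ± 283 CPM, edgeR adjusted p for muscle against lung = 1.71e-04). Nqo1, a quinone reductase and NRF2 target, fell (3.75 against 19.9 CPM).

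Adipogenic and lipid-handling genes were found on both sides, 15 higher and 12 lower of 36 and a median log2 difference of 0.81. These shares, 41.7% and 33.3%, were near the 36.1% and 37.3% of all tested genes. Lpl, the lipoprotein lipase, rose 42.4-fold (1498 ± 214 CPM in muscle FAPs and 35.3 ± 8.43 CPM in MEFs). Cebpd, an early transcription factor of fat cell differentiation, rose 41-fold (678 ± 127 CPM in muscle FAPs and 16.5 ± 3.57 CPM in MEFs), and Apod, which encodes the lipid carrier apolipoprotein D, 274-fold. Scd2, a fatty acid desaturase, fell 24.3-fold (84.1 ± 14.6 CPM in muscle FAPs and 2039 ± 808 CPM in MEFs), Fabp5, a fatty acid binding protein, 56.2-fold, and Gata2, a transcription factor that restrains fat cell formation, 56.5-fold.

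Patterning genes differed in both directions. Of 51 transcription factors of limb and trunk mesenchyme, 28 fell and 12 rose (54.9% and 23.5%, against 37.3% and 36.1% of all tested genes). Among the 37 members with at least 5 CPM in 4 libraries, 19 fell and 10 rose. The median log2 difference was then -0.52 in place of -1.22. The summed level of the list was higher in every muscle FAP library (931 to 1156 CPM) than in any MEF library (893 to 927 CPM). Meox2 and Meox1, homeobox factors of the somite and limb muscle, rose to 81.3 ± 12.5 and 30.1 ± 4.39 CPM from 2.04 ± 0.549 and 1.1 ± 0.613 CPM. Alx1 (0.0147 against 5.88 CPM) and Barx1 (0.0294 against 6.91 CPM), homeobox factors of facial mesenchyme, and Zic1, of neural tube and dorsal somite (0.102 against 14.4 CPM), fell. Prrx1, a marker of limb mesenchyme, was found in both groups and was 1.68-fold lower in muscle FAPs (154 ± 12.4 CPM in muscle FAPs and 259 ± 21.6 CPM in MEFs). Dlx2, a factor of branchial arches and forebrain, was in the set of largest decreases (0.0144 against 12.4 CPM).

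Posterior Hox genes, which pattern the lower trunk and the limbs, also differed. Of 16 tested genes of paralog groups 9 to 13, 4 rose and 10 fell (25% and 62.5%, against 36.1% and 37.3% of all tested genes). Hoxc10, a hindlimb gene, stood at 29.1, 29.5, 35.3 and 34.1 CPM in muscle FAP 2 to 5 and 13.1, 15.6, 11.4 and 12.1 CPM in MEF 1 to 4, and had no count in lung FAPs. Hoxd13, a gene of the distal limb, stood at 0.349, 0.68, 0.633 and 0.778 CPM in muscle FAP 2 to 5 and 23.8, 31.2, 24.9 and 30.8 CPM in MEF 1 to 4. Hoxb9, a gene of the trunk, stood at 0.786, 3.55, 0.23 and 3.62 CPM in muscle FAP 2 to 5 and 47.7, 50.2, 51.1 and 47 CPM in MEF 1 to 4. Hoxc10 was higher in every muscle FAP library (2.45-fold, edgeR adjusted p = 7.32e-06), and Hoxd13 and Hoxb9 were higher in every MEF library (45.2-fold and 24-fold, edgeR adjusted p = 5.38e-10 and 8.55e-06). Of 21 genes of groups 1 to 8, 9 fell (42.9%) and 3 rose (14.3%), against 37.3% and 36.1% of all tested genes. Hoxb8 had the largest change (0.244 against 6.82 CPM).

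Of 26 oncofetal and imprinted growth genes, 13 were lower in muscle FAPs (50% against 37.3% of all tested genes) and 8 higher (30.8% against 36.1%). Hmga2, a chromatin protein of embryonic growth, stood at 2.9997, 3.46, 4.66 and 5.63 CPM in muscle FAP 2 to 5 and 570.3, 498, 385 and 594 CPM in MEF 1 to 4. It was 122-fold lower in muscle FAPs than in MEFs (log2 fold change -6.93 ± 0.25 (SE), edgeR adjusted p = 1.32e-12), and lung FAPs averaged 3.75 ± 0.558 CPM. Igf2bp1, which encodes a fetal mRNA-binding protein, averaged 0.197 ± 0.118 CPM in muscle FAPs and 43.3 ± 6.48 CPM in MEFs, and the imprinted Nnat 1.3 ± 0.448 CPM in muscle FAPs and 42.2 ± 14.5 CPM in MEFs. Of the other imprinted genes, Sgce (210.0 against 22.6 CPM), Zim1 (19.8 against 2.82 CPM) and the long non-coding RNA Meg3 (309 against 45.4 CPM) rose.

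The MEF libraries differed among themselves in sex-linked genes. Xist, the RNA of the inactive X chromosome, stood at 0.262, 0.592, 0.346 and 0.479 CPM in muscle FAP 2 to 5 and 0.121, 87.2, 0.0227 and 99.5 CPM in MEF 1 to 4. Ddx3y, on the Y chromosome, stood at 209, 253, 249 and 193 CPM in muscle FAP 2 to 5 and 69.9, 0.0637, 43.1 and 37.5 CPM in MEF 1 to 4. Muscle FAPs were thus low in Xist and high in Ddx3y in every library, MEF 1 and MEF 3 were low in Xist, MEF 2 was low in Ddx3y, and MEF 4 held both. Leaving out MEF 2 and MEF 4 gave 4752 genes higher and 5188 lower, and leaving out MEF 1 and MEF 3 gave 4821 and 5232. With all libraries the counts were 5570 and 5756. Such totals cannot tell which single differences follow sex, and the part of sex was not tested. MEF 3 also differed from MEF 4 in other genes reported here, with more Acta2 (3354 against 1856 CPM) and less Lyz2 (67.6 against 232 CPM). Over genes averaging 50 CPM or more, the median coefficient of variation was 9.63% in muscle FAPs and 10.1% in MEFs.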

How the data were processed

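RNA-seq was compared between 4 muscle FAP and 4 MEF libraries, within a fit of all 13 libraries of the series. The deposited table holds raw counts per gene symbol (whole numbers, as the values show). The submitters' processing notes name Bowtie2 2.1.0.0, HTSeq, edgeR and build mm10, with no role or order. Total RNA was extracted with Trizol and columns and sequenced after an Illumina library preparation, per the labels' protocols. Strand handling is not given in the sources used here, so overlapping genes cannot be told apart.

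Counts were filtered with filterByExpr, given TMM factors and put through the quasi-likelihood test of edgeR 4.0.16 (R 4.3.3), with Benjamini-Hochberg adjustment over 15412 genes at 0.05, and with glmTreat against 2-fold. CPM are on the TMM scale, values are mean ± SD (n = 4, lung n = 5), and an SE is that of the difference in mean log2 CPM (prior count 2) between libraries. Groups came from the labels. No replicate block was used, since no label ties equal numbers to a shared source. Scripts were tested on simulated data. Limits from counts cover counting error only, since no molecular identifiers are named.

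The comparison and the 52 gene lists (38 by role, 14 by cell type) were chosen with earlier results of these data known, so no list is independent evidence, and each is described by its counts and median. Genes were named, not all of them in the text, by this rule: for each direction the 15 genes of greatest log2 fold change with at least 10 CPM and no overlap, the 10 largest CPM differences in each direction, in each list by role the 3 largest passing changes in each direction with at least 5 CPM and the highest level, in each list by cell type the 3 highest levels, Pdgfra, Ly6a, Cd34, Col1a1 and Vim, and the 5 most variable genes of each group. Predicted genes were passed over, and some genes are not reported here. Genes named by other routes are Ptprc, Pecam1 and Itga7 (label check), Top2a, Cdc20, Mki67, Chaf1a, Rrm1 and Cyp51 (promoters) and, chosen after their values were seen, Fn1, Hsp90aa1, Eef1a1, Scx, Cdh5, Cd3e, Cd3g, Ccl3, Ccl4 and genes of symbol families in the closing section. Alternatives were 3 other scalings, 2 other filters, DESeq2 1.42.0, limma 3.58.1 with voom, the 8 libraries alone, a replicate block, each library left out, and pairs of MEF libraries left out.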

Additional observations from a re-analysis of the deposited data

Results flagged for a closer look

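In each group of 4 libraries, the gap between the highest or lowest library and its nearest neighbour was set against the group's whole range, and a library was singled out where that ratio passed Dixon's 95% critical value. Among 331 combinations of a gene named here and a group with a mean of at least 1 CPM, 21 had such a library. Chance singles out about 1 in 20, so this count is near what chance alone gives. The named genes also include the most variable genes of each group, which were picked for the spread examined here. The genes share libraries, so they are not independent observations. The count therefore cannot show that any library differed, and the values below only describe single genes.

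Muscle FAP 5 was singled out in genes of the interferon response and antigen presentation. Iigp1 was at 433 CPM there and at 31.6 to 50.4 CPM in the other 3 libraries. H2-K1 was at 1036 CPM against 449 to 532 CPM. The immunoproteasome subunits Psmb8 and Psmb9 were at 44.6 CPM against 17.2 to 18.8 CPM and 29.4 CPM against 4.94 to 5.38 CPM. Ly6a, which interferons also induce, was at 1013 CPM against 680.0 to 719.6 CPM. The same library was highest in Cdkn1a (341 CPM against 313 to 317 CPM) and lowest in Itga9 (107 CPM against 138 to 144 CPM).

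Muscle FAP 2 had the highest level of the division genes Mki67 (3.03 CPM against 1.38 to 1.58 CPM) and Top2a (2.48 CPM against 0.718 to 0.946 CPM), both still below every MEF library. It was also highest in the lipid genes Fdft1 (9.44 CPM against 5.63 to 6.02 CPM) and Scd2 (106 CPM against 75.2 to 78.8 CPM), and lowest in Ctsk (355 CPM against 415 to 422 CPM). Flt1 was at 6.71 CPM in muscle FAP 3 and 3.02 to 3.25 CPM in the others. Nnat was at 0.633 CPM in muscle FAP 4 and 1.45 to 1.62 CPM in the others.

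Among MEFs, MEF 2 was highest in Cdk1 (19.7 CPM against 14.2 to 15 CPM), Apln (26.1 CPM against 19.9 to 20.4 CPM) and Meox2 (2.87 CPM against 1.76 to 1.77 CPM). MEF 3 was lowest in Top2a (18.8 CPM against 29.3 to 30.3 CPM) and highest in Il11 (14.2 CPM against 10.6 to 10.9 CPM). MEF 4 was highest in the tenascin Tnc (2794 CPM against 1858 to 1933 CPM) and the chaperone Hspa5 (841 CPM against 699 to 717 CPM).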

How the results depend on the processing

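The counts of genes higher and lower stayed within 1.5 times of the reported counts under all 19 alternatives, and so did the counts over 2-fold, with 1 exception: with total counts as the scale, 4613 genes were lower by over 2-fold against 2745. The cause of this shift was not tested. Of the 11326 genes called, 9513 were called in the same direction at that scale and 83 in the other direction. With DESeq2's size factors 5452 genes were higher and 5874 lower, and with upper-quartile scaling 5320 and 5994. Leaving out 1 library at a time gave 5176 to 5383 genes higher and 5531 to 5679 lower, and over 2-fold 2945 to 3081 and 2586 to 2723. Equal library numbers were not found to pair the groups: deviations from the group means of libraries numbered 2, 3 and 4 correlated at -0.0228, 0.0286 and 0.0594. With a replicate block, 5263 genes were higher and 5554 lower, and 3017 and 2650 by over 2-fold. A fit of the 8 libraries without lung FAPs gave 5815 genes higher and 5952 lower of 14740 tested. Of the 3772 values of the 199 genes followed over the alternatives, 3762 kept direction and side of the threshold and 8 no longer passed (5 of them for Ddx3y, the others for Plk4, Xist and Itga7), and Fn1 passed as lower with total counts as the scale. Xist, lower in muscle FAPs by edgeR with all libraries, turned to a log2 fold change of 2.47 without MEF 2 and MEF 4, where no remaining library reached 1 CPM. Of 1900 counts of list members higher or lower, 91 moved by over 1.5 times, 22 of them with total counts as the scale. Apart from that scale, the median of 7 of 38 lists by role moved by over 1.5-fold under some alternative. Among medians printed above, these included interferon response (2.90 without muscle FAP 5), cytokines and chemokines (4.74 with at least 5 CPM in 4 libraries) and adipogenic regulators and lipid handling (0.12 with the 8 libraries alone). They also included transcription factors of limb and trunk mesenchyme (-0.52 with at least 5 CPM in 4 libraries). Genes of low counts limit the precision: a level of 0 in a group allows up to 3 counts over its libraries.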

Other observations

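Gene families defined by symbol, a grouping chosen after values were seen and given with no test, described biology outside the lists above. Replication-dependent histone genes of the clusters were 0 higher and 30 lower of 34 tested, with a median log2 difference of -4.29 and a summed level of 54.9 to 72.8 CPM in muscle FAPs against 436 to 516 CPM in MEFs. Histone copies are near-identical, so no single member is given. Mitochondrial ribosomal proteins were 3 higher and 68 lower of 76 (median -1.12). Proteasome subunits were 4 higher and 34 lower of 39 (median -0.86). The higher members included Psmb8 (24.6 against 1.59 CPM) and Psmb9 (11.2 against 0.621 CPM), the interferon-inducible catalytic subunits of the immunoproteasome, while the constitutive catalytic subunit Psmb5 fell (28.9 against 101 CPM). Subunits of the proton pump of lysosomes, the V-type ATPase, were 1 higher and 14 lower of 19 (median -1.23). Cathepsins went in both directions, 6 higher and 4 lower of 12 (5 higher and 6 lower with total counts as the scale), with the lysosomal protease Ctsd lower (521 ± 21 CPM in muscle FAPs and 3501 ± 25.1 CPM in MEFs) and the collagen-degrading Ctsk higher (403 ± 32.2 CPM in muscle FAPs and 56.6 ± 4.63 CPM in MEFs). For comparison, all tested genes had 36.1% higher and 37.3% lower.

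Collagen chains were 30 higher and 9 lower of 44 and summed to 97122 to 124168 CPM in muscle FAPs and 11938 to 14463 CPM in MEFs. Col6a6, a chain of beaded microfibrils, rose (503 ± 79.4 CPM in muscle FAPs and 0.194 ± 0.118 CPM in MEFs), whereas Col2a1, the cartilage collagen (1.39 ± 0.919 CPM in muscle FAPs and 62.9 ± 22.4 CPM in MEFs), and Col7a1, of anchoring fibrils (2.95 ± 0.87 CPM in muscle FAPs and 63.3 ± 25.8 CPM in MEFs), fell. Lipid transporters of the ABC family that sit side by side in the genome, Abca6 (199.9 against 0.317 CPM), Abca9 (449 against 1.09 CPM) and Abca8b (597 against 2.36 CPM), rose along with Abca8a. Guanylate-binding and related GTPases of immunity were 15 higher and 2 lower of 18 (median 5.04), and their summed level ran from 522 to 1588 CPM among muscle FAP libraries and from 154 to 165 CPM among MEF libraries. Homeobox and paired-box factors of the Dlx, Lhx, Msx, Pax and sine oculis-related families were 4 higher and 18 lower of 25 (median -3.56). Among them Lhx9, a factor of limb bud and gonad, fell (0.344 ± 0.335 CPM in muscle FAPs and 22.2 ± 2.03 CPM in MEFs). Of the larger families, solute carriers were 111 higher and 91 lower of 277 and genes named Zfp 109 higher and 94 lower of 342, with medians of 0.03 and 0.04, and with total counts as the scale these became 84 higher and 132 lower and 47 higher and 171 lower.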
